A study of Mus musculus with 4 samples.

Results

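RAD21 binding was examined at 10 imprinted genes outside the H19 and Grb10 regions: Peg3, Mest, Dlk1, Meg3, Kcnq1, Cdkn1c, Gnas, Snrpn, Igf2r and Plagl1. The genes were taken by name from GENCODE vM1 on the mouse build mm9 (NCBIM37), with every listed RAD21 binding site that overlapped a gene body or lay within 100 kb of it. Near these genes lay 23 of the 15311 sites listed for embryonic stem cells (ESCs) and 21 of the 11022 sites listed for embryoid bodies (EBs). Overlapping ESC and EB sites were joined, which gave 32 sites of 18488 on the autosomes. Of these, 12 were listed in both cell types, 11 in ESCs only and 9 in EBs only. Dlk1 and Meg3 share a window, as do Kcnq1 and Cdkn1c, so the 10 genes formed 8 loci. The sites were numbered along each locus from the lower to the higher coordinate.

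The study tested where cohesin sits in stem cells and after their differentiation. It used R1/E mouse ESCs that carry, beside their own Rad21 gene, a bacterial artificial chromosome with Rad21 fused to a GFP-containing tag, and were sorted for GFP. Chromatin was taken from these ESCs (day 0) and from EBs grown from them in hanging drops for 12 days, and was precipitated with a goat antibody to eGFP or with goat IgG. This gave 4 libraries, 1 of each kind per cell type. The IgG libraries are also described as input DNA in their labels. Both cell types derive from the same tagged line, the tagged protein is expressed beside the untagged protein, and EBs hold many cell types at once. A lower read number in EBs can therefore come from fewer bound cells or from less binding per cell, and these cannot be told apart. The reads were not assigned to parental alleles.

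The RAD21 libraries held 13714772 autosomal reads in ESCs and 7740389 in EBs, and the IgG libraries held 12602155 and 6929293. Reads are given as counted, ratios are scaled by these totals, and levels per 1000000 autosomal reads are written RPM. Every ratio and share has an exact 95% interval that covers counting error only. With 1 library per group there was no test between cell types, and a difference between read numbers compares these libraries and not the conditions. In 50000 random windows of the same width, RAD21 held 2.76 reads on average in ESCs and 1.54 in EBs.

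Imprinted genes are expressed from the allele of only 1 parent. Their clusters are governed by control regions that carry DNA methylation on the maternal or the paternal copy, often at the promoter of a long noncoding RNA. CTCF, a zinc finger protein that binds a long GC-rich motif when it is unmethylated, stops the cohesin ring as it moves along DNA, and RAD21 is the subunit that closes that ring. Peg3 and Plagl1 encode zinc finger factors, Mest an enzyme of the hydrolase fold, Dlk1 a membrane protein related to the Notch ligands, and Meg3 a maternally expressed noncoding RNA. Kcnq1 encodes a potassium channel, and the paternal noncoding RNA Kcnq1ot1 starts inside it. Cdkn1c encodes an inhibitor of cyclin-dependent kinases, Gnas the stimulatory G protein alpha subunit with several alternative first exons, Snrpn a protein of the splicing machinery, and Igf2r the receptor that removes insulin-like growth factor 2 from the cell surface.

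Sequences are shown at a choice of sites from each list, which include sites that did and did not differ between cell types. A CTCF matrix of 20 positions was learned at RAD21 sites of the odd chromosomes and scored on the even ones, and the other way round, and both matrices had the consensus GTGGCCACCAGAGGGCACCA. Capitals mark the best match within 150 bp of each site, on the strand on which it reads in this direction. The match strength is in bits. On the odd chromosomes a strict limit of 18.98 bits is passed by 1e-05 of random positions, and a relaxed limit of 8.55 bits by 1e-04. For the even chromosomes the limits are 19.3 and 8.46 bits. The first set holds sites that were listed in ESCs only, with 18.4 bits in Kcnq1 intron site 6, 24.4, 19.6 and 22.9 bits in sites 9, 10 and 11 upstream of the Cdkn1c start, 16.1 bits at the Gnas start and 15.3 bits in the Peg3 intron.
Kcnq1-Cdkn1c site 6, chr7:150300857-150300896, plus strand: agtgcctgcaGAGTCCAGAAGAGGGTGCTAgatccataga
Kcnq1-Cdkn1c site 9, chr7:150652389-150652428, minus strand: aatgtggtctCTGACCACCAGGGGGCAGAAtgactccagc
Kcnq1-Cdkn1c site 10, chr7:150656051-150656090, minus strand: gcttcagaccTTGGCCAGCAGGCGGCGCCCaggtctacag
Kcnq1-Cdkn1c site 11, chr7:150692806-150692845, minus strand: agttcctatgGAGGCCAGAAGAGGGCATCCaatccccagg
Gnas site 1, chr2:174109655-174109694, minus strand: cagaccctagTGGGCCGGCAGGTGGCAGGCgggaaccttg
Peg3 site 4, chr7:6679980-6680019, minus strand: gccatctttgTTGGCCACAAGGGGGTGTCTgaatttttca

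The second set holds sites listed in both cell types, with 20.8 bits at Zim1 in the Peg3 locus, 22.4 bits in Airn in the Igf2r locus, and 21.2, 19.8 and 17.3 bits upstream of Plagl1.
Peg3 site 2, chr7:6641634-6641673, minus strand: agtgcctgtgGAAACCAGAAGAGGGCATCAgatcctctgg
Igf2r site 2, chr17:13003515-13003554, minus strand: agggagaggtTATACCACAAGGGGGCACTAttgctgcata
Plagl1 site 1, chr10:12717101-12717140, minus strand: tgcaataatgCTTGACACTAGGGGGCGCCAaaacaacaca
Plagl1 site 2, chr10:12736510-12736549, plus strand: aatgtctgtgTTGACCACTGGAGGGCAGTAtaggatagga
Plagl1 site 3, chr10:12807189-12807228, plus strand: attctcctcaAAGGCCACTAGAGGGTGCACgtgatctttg

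The third set shows sites listed in EBs only. The best windows of the sites by the Peg3 start and at Tsga14 in the Mest locus reached only -2.53 and -5.96 bits, below even the relaxed limit, while the site inside Tspan32 reached 27.6 bits, the highest of all 32.
Peg3 site 5, chr7:6684270-6684309, plus strand: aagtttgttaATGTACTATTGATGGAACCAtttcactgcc
Mest site 1, chr6:30606771-30606810, minus strand: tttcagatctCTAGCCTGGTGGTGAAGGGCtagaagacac
Kcnq1-Cdkn1c site 1, chr7:150194104-150194143, plus strand: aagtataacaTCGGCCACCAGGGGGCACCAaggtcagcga

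Across the 32 sites, RAD21 reads within 250 bp were higher in EBs at 9 sites and lower at 5, where higher or lower means that the 95% interval of the EB to ESC ratio left out 1. Over all 18488 joined sites 20.2% were higher and 18.3% lower. The median log2 EB to ESC ratio, with 1 read added to each number, was 0.05 at the 32 sites and 0.04 at all joined sites. The sites listed in 1 cell type were chosen by the same reads, so their direction is a description. Of the 11 sites listed in ESCs only, 5 were lower in EBs and 0 were higher, against 42% and 0.0258% of all such sites. Of the 9 sites listed in EBs only, 6 were higher and 0 lower, against 64.5% and 0%. Of the 12 sites listed in both, 3 were higher and 0 lower, against 21% and 1.71%, and their median log2 ratio was 0.13 against 0.39 over all shared sites.

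**Figure D1:**
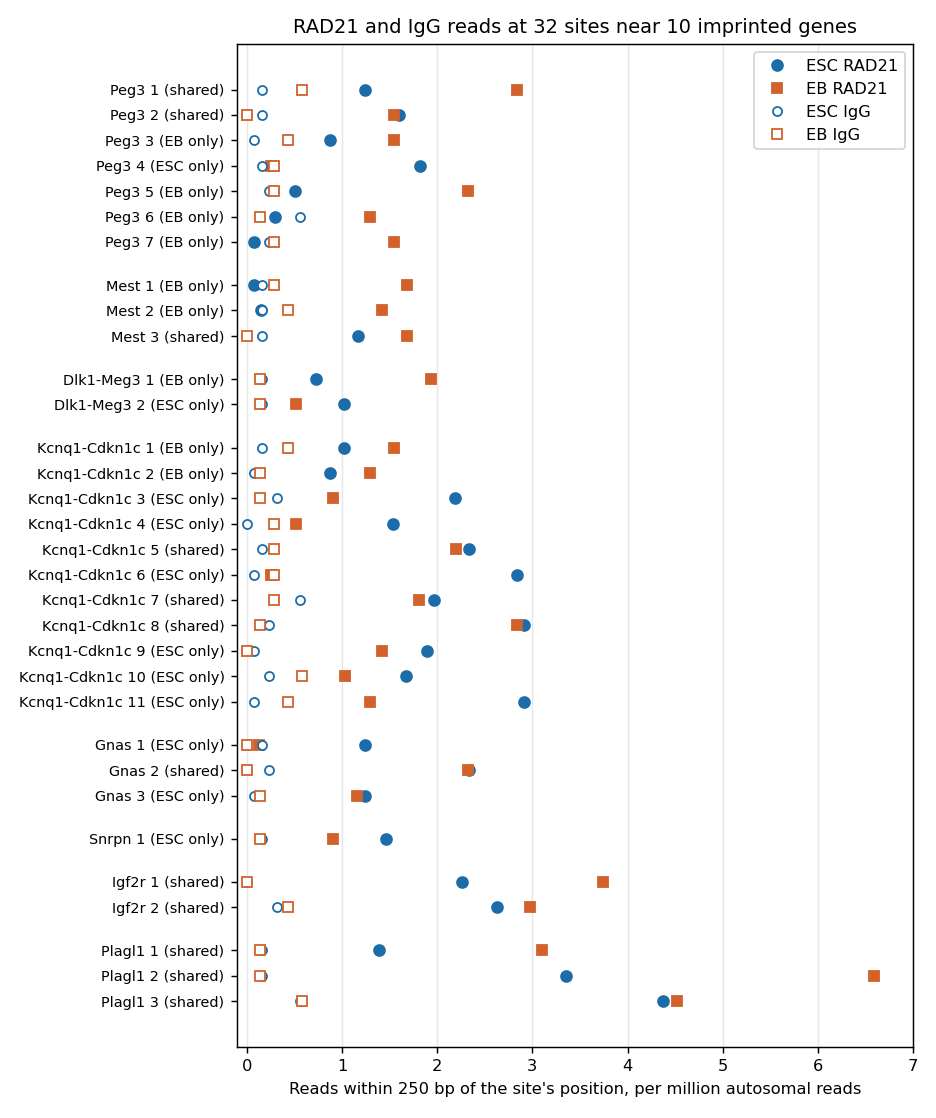
RAD21 (filled) and IgG (open) reads within 250 bp of each of the 32 joined sites, in RPM, with ESCs in blue circles and EBs in orange squares and 1 library per mark. The highest mark is the EB RAD21 value of Plagl1 site 2 at 6.59 RPM, and IgG stayed below 1 at all 32 sites.

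The direction differed by locus, as did the lists. All 5 lower sites were listed in ESCs only and 6 of the 9 higher sites in EBs only, so this split largely restates the lists. At Peg3, 4 of 7 sites were higher in EBs and 1 lower. At Mest, 2 of 3 were higher and 0 lower. At Plagl1, 2 of 3 were higher and 0 lower. At Kcnq1-Cdkn1c, 3 of 11 were lower and 0 higher, and at Gnas 1 of 3 was lower and 0 higher. At Dlk1-Meg3, 1 of 2 was higher, and at Snrpn and Igf2r every interval included 1.

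The libraries also differed in base composition. In random windows the EB to ESC ratio of RAD21 reads was 1.403 in the fifth of windows with the lowest GC content and 0.679 in the fifth with the highest, and the IgG reads gave 1.34 and 0.715. The median GC content was 52.1% at the sites listed in ESCs only, against 46.3% over all such sites in the genome. It was 43.9% at those listed in EBs only, against 41.5%, and 44.9% at the shared sites, against 44.7%. With the ratios divided by that of random windows of the same GC class, 10 sites were higher and 3 lower, the 3 being Peg3 site 4, Kcnq1-Cdkn1c site 6 and Gnas site 1. With the ratios scaled so that all shared sites had a median ratio of 1, which lowers every log2 ratio by 0.39, 4 were higher and 6 lower. The calls that held under these scalings and under scaling by the IgG reads of the chromosome were Peg3 sites 5 and 7 and Mest sites 1 and 2 among the higher, and the same 3 among the lower.

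**Figure D2:**
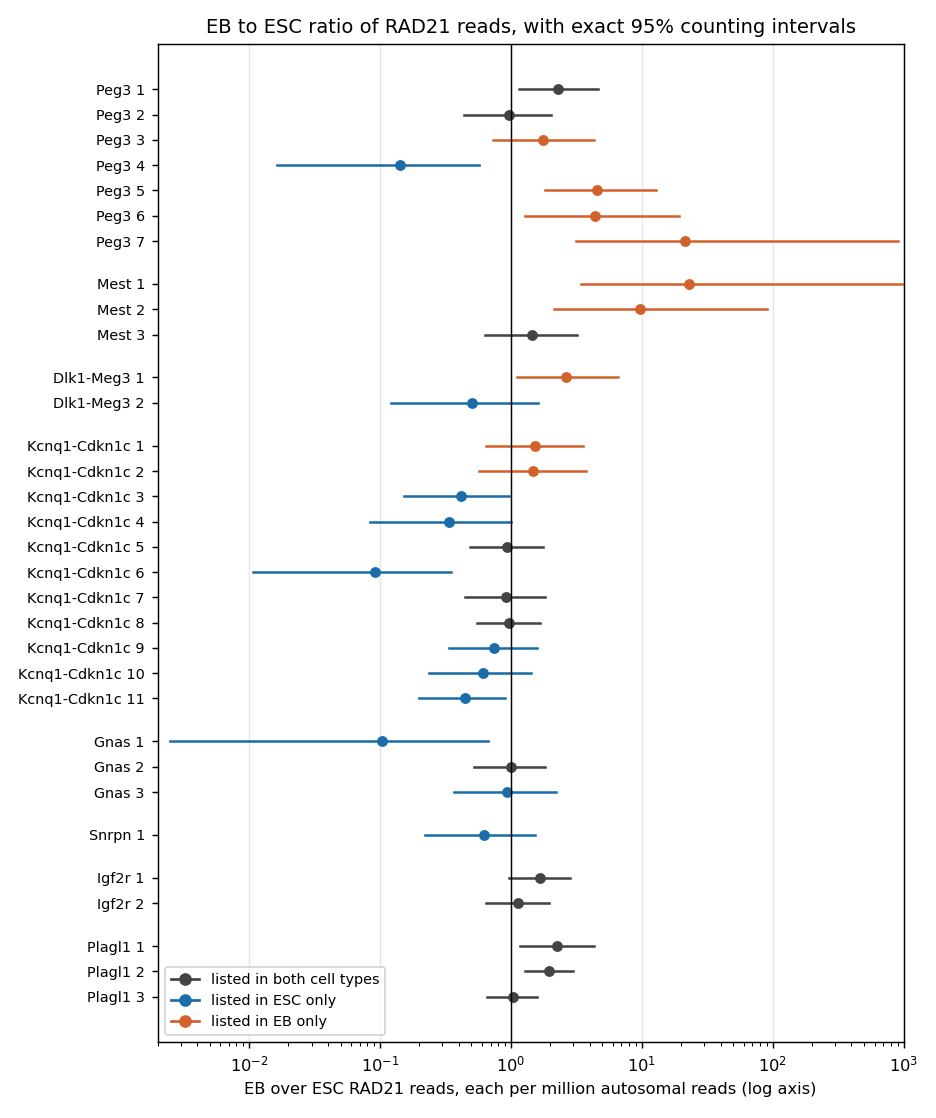
EB to ESC ratio of RAD21 reads within 250 bp at the 32 sites, scaled by autosomal reads, on a log axis. Points are ratios, bars are exact 95% counting intervals, colours give the list in which a site stood, and the Mest site 1 bar ends at the edge of the axis near 979. Kcnq1-Cdkn1c site 6, Gnas site 1 and Peg3 site 4 lie farthest to the left.

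Peg3 held the most EB sites for its window: 6, or 2.65 per 100 kb, which exceeded the density of 99.6% of the 25087 autosomal genes. In ESCs it had 3 sites, or 1.32 per 100 kb, above 66.4% of genes. With the ESC libraries thinned to the EB depth in 1 random draw and all libraries called by the same procedure, Peg3 had 3 sites in ESCs and 8 in EBs.

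The exchange at Peg3 lay around its start, at position 6683132 on the minus strand of chromosome 7. In the first part of the gene, 3.17 kb downstream, site 4 (chr7:6679458-6680515, intron) was listed in ESCs only, with 25 RAD21 reads in ESCs and 2 in EBs beside 2 IgG reads in each. This is an EB to ESC ratio of 0.142 (0.0163 to 0.568), or 7.05-fold fewer in EBs. Upstream of the start, site 5 (chr7:6683280-6684597, intergenic) was listed in EBs only, with 7 reads in ESCs and 18 in EBs beside 3 and 2 IgG reads. Its ratio was 4.56 (1.82 to 12.9). Site 6 (chr7:6684937-6685504) lay just beyond it, with 4 and 10 RAD21 reads beside 7 and 1 IgG reads and a ratio of 4.43 (1.28 to 19.3). The RAD21 reads of sites 5 and 6 in ESCs were not above the ESC IgG reads by the interval, which reached from 0.489 to 12.8 and from 0.113 to 2.07. The sites on opposite sides of the Peg3 start thus stood in opposite lists.

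The Peg3 intron site held a repeated stretch. The letters GCCATNTT, the core of the motif of the zinc finger factor YY1, were counted on both strands within 250 bp of each site, after the sites had been seen. Site 4 of Peg3 and site 2 of Dlk1-Meg3 held 2 copies each. At least 2 copies were found at 2 of the 32 sites, at 0.535% of all joined sites and at 0.67% of random windows. Both stretches are printed on the plus strand, with the letters in capitals where they match on the opposite strand. In the Peg3 stretch the copies stand in the same longer repeat, and the CTCF match shown above lies next to the copy at the end of the stretch nearer to the lower coordinate.
Peg3 site 4, chr7:6680002-6680151, plus strand: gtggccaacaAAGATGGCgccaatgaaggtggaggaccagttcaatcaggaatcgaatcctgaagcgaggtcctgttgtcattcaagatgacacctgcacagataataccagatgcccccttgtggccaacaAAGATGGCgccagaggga
Dlk1-Meg3 site 2, chr12:110781035-110781106, plus strand: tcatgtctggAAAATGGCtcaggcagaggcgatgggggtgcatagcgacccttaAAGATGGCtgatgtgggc

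Farther from Peg3, sites lay at Zim1, a neighbouring imprinted zinc finger gene. Site 2 (chr7:6641177-6642122), 82 bp upstream of the internal Zim1 start, was listed in both cell types with 22 and 12 RAD21 reads beside 2 and 0 IgG reads and a ratio of 0.966 (0.436 to 2.04). Site 3 (chr7:6649246-6649642), 292 bp upstream of the other Zim1 start, was listed in EBs only, yet held 12 reads in each cell type beside 1 and 3 IgG reads, a ratio of 1.77 (0.728 to 4.31). It was therefore above IgG in ESCs (11.03, 1.63 to 471) without being listed there, and its EB interval over IgG included 1 (3.58, 0.966 to 19.8).

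The outermost sites of the Peg3 locus were both higher in EBs. Site 1 (chr7:6612098-6612992, intergenic) had 17 and 22 RAD21 reads beside 2 and 4 IgG reads, a ratio of 2.29 (1.16 to 4.60). Site 7 (chr7:6748588-6749137), 65.7 kb upstream of Peg3, had 1 and 12 reads beside 3 and 2 IgG reads, a ratio of 21.3 (3.15 to 909). Outside all sites the window held 1176 and 817 RAD21 reads, an EB to ESC ratio of 1.23 (1.12 to 1.35), and the IgG ratio there was 0.9753 (0.884 to 1.08). The rise at the Peg3 sites stood on a RAD21 background that was also higher in EBs, whose part in the result was not tested.

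**Figure D3:**
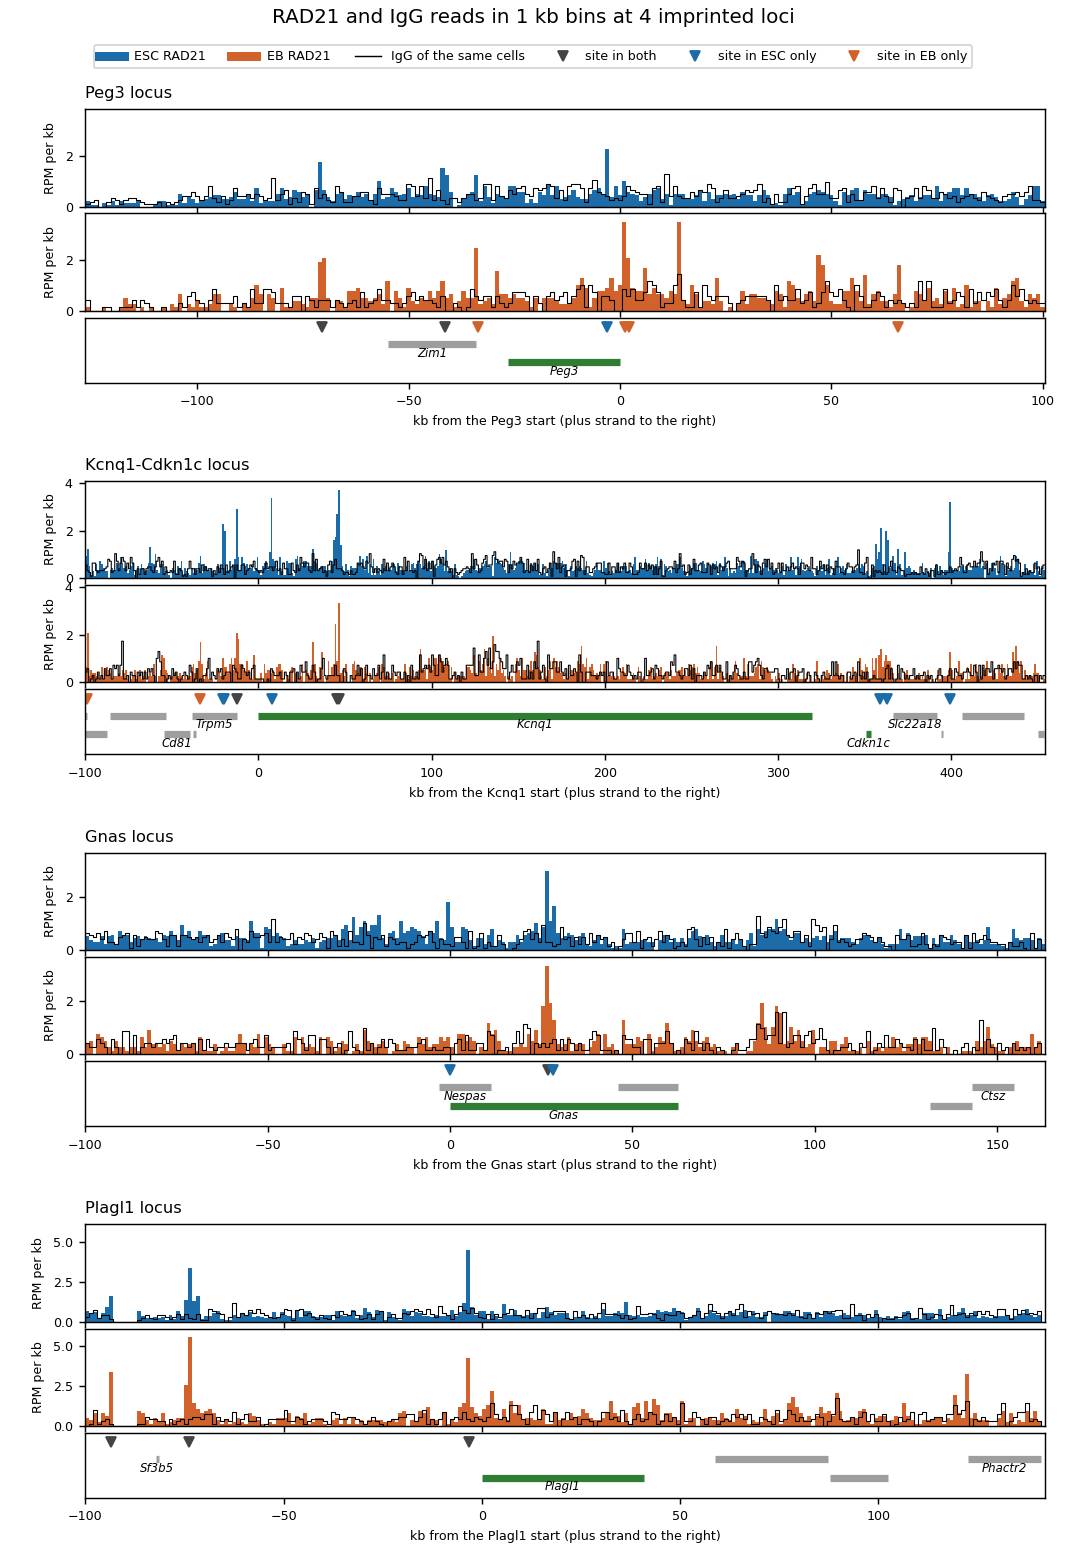
RAD21 reads (coloured bars) and IgG reads (black line) in 1 kb bins, in RPM, against the distance in kb from the start of Peg3, Kcnq1, Gnas or Plagl1, with 1 library per track. Triangles mark the listed sites by list, green bars the named imprinted genes and grey bars other genes. At Peg3, 2 of the 4 EB-only triangles lie just upstream of the start, while Kcnq1-Cdkn1c carries 6 ESC-only triangles and all 3 Plagl1 triangles are shared.

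Kcnq1 had 9 ESC and 5 EB sites within 100 kb. Cdkn1c had 3 and 0, and these 3 are among those of Kcnq1. The strongest difference was site 6 (chr7:150300466-150301393), in an intron 7.74 kb downstream of the Kcnq1 start. Its ESC score, 10 times the negative log10 of the peak p-value, was 251.67, above that of 93.7% of ESC sites. It held 39 RAD21 reads in ESCs and 2 in EBs beside 1 and 2 IgG reads. The ratio was 0.0909 (0.0106 to 0.351), or 11.01-fold fewer in EBs, and in EBs RAD21 did not exceed IgG (0.895, 0.0649 to 12.4). At 37.9% GC this site lies in a class where random windows favoured EBs, and the GC-scaled ratio was 0.0821.

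At other sites in the same gene no difference was detectable. Sites 7 and 8 (chr7:150337639-150338875 and chr7:150339237-150340460), about 45.1 and 46.7 kb into Kcnq1, were listed in both cell types. Site 7 held 27 and 14 RAD21 reads beside 7 and 2 IgG reads, a ratio of 0.919 (0.445 to 1.81) at the midpoint, with 28 and 10 reads at its ESC summit and 20 and 15 at its EB summit. Site 8, with the highest EB score of the locus (147.97), held 40 and 22 reads beside 3 and 1 IgG reads, a ratio of 0.9745 (0.552 to 1.68). The intervals of both midpoint ratios included 1, and at site 7 the ESC and EB summits held different read numbers.

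On the side of Cdkn1c, 3 sites were listed in ESCs only. Site 9 (chr7:150651605-150653021), 5.39 kb upstream of the Cdkn1c start, held 26 and 11 RAD21 reads beside 1 and 0 IgG reads. Site 10 (chr7:150655601-150656520) held 23 and 8 beside 3 and 4 IgG reads. Site 11 (chr7:150692220-150693268), 4.30 kb upstream of Phlda2, an imprinted gene that restrains placental growth, held 40 and 10 beside 1 and 3 IgG reads.

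Only site 11 of these 3 was lower in EBs by its interval, with a ratio of 0.443 (0.198 to 0.901), and its GC-scaled interval, 0.235 to 1.07, included 1. The ratios of sites 9 and 10 were 0.750 (0.334 to 1.57) and 0.616 (0.238 to 1.43). Site 9 was above IgG in EBs, with a lower bound of 2.25 beside 0 IgG reads, and the equal-depth procedure called it in EBs as well. Its absence from the EB list therefore did not mean a loss of reads that could be told from counting error. Outside sites the locus held 3367 and 1720 RAD21 reads, a ratio of 0.905 (0.854 to 0.960), and the IgG ratio was 0.907 (0.852 to 0.967).

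Upstream of Kcnq1, sites lay in and beside Trpm5, which encodes a cation channel of taste cells. Sites 3 and 4 (chr7:150271847-150272905 and chr7:150273159-150273885) were listed in ESCs only. Site 3 held 30 and 7 RAD21 reads beside 4 and 1 IgG reads, a ratio of 0.413 (0.153 to 0.961), and its GC-scaled value was 0.609 (0.226 to 1.42). Site 4 held 21 and 4 beside 0 and 2 IgG reads, a ratio of 0.337 (0.0842 to 1.00). Site 5 (chr7:150280385-150281718), the neighbour nearer to Kcnq1, was shared, with 32 and 17 reads beside 2 IgG reads in each and a ratio of 0.941 (0.490 to 1.75) at the midpoint of its summits. The summits stood apart, with 36 and 13 RAD21 reads at the ESC summit and 8 and 11 at the EB summit, so the midpoint value does not describe either position.

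At the EB-only sites of this locus the EB to ESC intervals included 1. Site 1 (chr7:150193871-150194398), inside Tspan32 and 270 bp from the Gm15024 start, held 14 and 12 RAD21 reads beside 2 and 3 IgG reads, a ratio of 1.52 (0.642 to 3.54). Site 2 (chr7:150258953-150259513, in Trpm5) held 12 and 10 beside 1 IgG read in each, a ratio of 1.48 (0.571 to 3.73). At equal depth site 1 was also called in ESCs. Both were above IgG in ESCs, at 6.43 (1.48 to 58.3) and 11.03 (1.63 to 471), while in EBs site 1 was not above it by the interval, at 3.58 (0.966 to 19.8).

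Gnas had 3 ESC sites and 1 EB site. Site 1 (chr2:174109219-174109962) lay 143 bp upstream of the first of 7 annotated Gnas starts and inside Nespas, the antisense transcript of the locus. It was listed in ESCs only, with 17 and 1 RAD21 reads beside 2 and 0 IgG reads. The ratio was 0.104 (0.00249 to 0.665), or 9.59-fold fewer in EBs, and 0.154 after GC scaling. A listed site lay within 1 kb of the 5' end of 1 of the 10 genes in ESCs, Gnas, against 3.35% of gene starts, and of 1 in EBs, Peg3, against 3.26%.

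Sites 2 and 3 lay 26.8 and 28.1 kb into Gnas. Site 2 (chr2:174136121-174137016) was shared and held 32 and 18 RAD21 reads beside 3 and 0 IgG reads, a ratio of 0.997 (0.527 to 1.83). Site 3 (chr2:174137462-174138304) was listed in ESCs only but held 17 and 9 beside 1 IgG read in each, a ratio of 0.938 (0.368 to 2.22), and at equal depth it was called in EBs. The Gnas start therefore differed between the libraries while the intron sites did not beyond counting error. Outside sites the window's RAD21 ratio was 0.824 (0.755 to 0.898) and its IgG ratio 0.898 (0.817 to 0.987).

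Plagl1 had 3 sites in each cell type, all shared and all upstream of its start. Site 3 (chr10:12806760-12807769), 3.21 kb upstream, had the most RAD21 reads of the 32 sites in ESCs, 60, with 35 in EBs beside 7 and 4 IgG reads, a ratio of 1.03 (0.661 to 1.59). Site 2 (chr10:12736029-12737058), 73.9 kb upstream and 8.31 kb beyond the start of Sf3b5, had the highest EB score, 470.9, above 99.6% of EB sites. It held 46 and 51 reads beside 2 and 1 IgG reads, a ratio of 1.96 (1.29 to 2.99). Site 1 (chr10:12716568-12717298), 93.5 kb upstream, held 19 and 24 beside 2 and 1 IgG reads, a ratio of 2.24 (1.18 to 4.32).

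The sites far from Plagl1 thus held more reads in EBs and the site next to it did not differ beyond counting error. After scaling to all shared sites the ratios of sites 1 and 2 were 1.71 (0.895 to 3.29) and 1.497 (0.985 to 2.28), which include 1. Outside sites the window's RAD21 ratio was 1.30 (1.202 to 1.41) and its IgG ratio 1.07 (0.978 to 1.17). This was the highest RAD21 ratio outside sites of the 8 loci.

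Mest had 1 ESC site and 3 EB sites. Site 3 (chr6:30686608-30687603) was shared and lay 902 bp upstream of the Mest start with the most annotated transcripts (5), at chr6 position 30688050. It held 16 and 13 RAD21 reads beside 2 and 0 IgG reads, a ratio of 1.44 (0.637 to 3.19). Site 2 (chr6:30685986-30686497), in the intron just upstream, was listed in EBs only with 2 and 11 reads beside 2 and 3 IgG reads, a ratio of 9.75 (2.13 to 90.5). In EBs its reads were not above IgG by the interval (3.28, 0.867 to 18.3).

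The remaining Mest site lay at another gene. Site 1 (chr6:30606578-30607245) lay 68 bp upstream of an internal start of Tsga14, inside that gene and 66.7 kb upstream of Mest, and was listed in EBs only with 1 and 13 reads beside 2 in each IgG library, a ratio of 23.0 (3.46 to 979). None of the 3 Mest sites passed the relaxed CTCF limit. On chromosome 6 the EB IgG library held fewer reads than the ESC one for its depth (0.839), and scaling by that ratio gave 27.4 at site 1 and 11.6 at site 2.

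The Dlk1-Meg3 locus had 1 site in each list. The Dlk1 site (Dlk1-Meg3 site 1, chr12:110675789-110676706), 14.6 kb upstream of Dlk1, was listed in EBs only, with 10 and 15 RAD21 reads beside 2 and 1 IgG reads and a ratio of 2.66 (1.12 to 6.62). The Meg3 site (site 2, chr12:110781039-110781476), 2.03 kb downstream of the Meg3 start, was listed in ESCs only, with 14 and 4 reads beside 2 and 1 IgG reads and a ratio of 0.506 (0.121 to 1.61). The point estimates went in opposite directions, and only the Dlk1 interval left out 1, which it did not after scaling to all shared sites.

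At Snrpn and Igf2r no site differed between cell types beyond counting error. Snrpn had 1 ESC site and 0 EB sites. The ESC site (chr7:67152399-67153206), in an intron, lay 2.76 kb upstream of the downstream Snrpn start and held 20 and 7 RAD21 reads beside 2 and 1 IgG reads, a ratio of 0.620 (0.222 to 1.53). No CTCF match passed the relaxed limit there, and its GC content of 33.1% was the lowest of the 32 sites. Igf2r had 2 shared sites. Site 2 (chr17:13002823-13003972), inside Airn, the noncoding RNA that runs antisense through the Igf2r start, held 36 and 23 beside 4 and 3 IgG reads, a ratio of 1.13 (0.640 to 1.96).

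All 10 genes had an ESC site within 100 kb, against 82.3% of autosomal genes, and 7 had an EB site, against 73.7%. Meg3, Cdkn1c and Snrpn had none in EBs. The median number of sites per gene was 2.5 in ESCs and 1.5 in EBs, and over all genes it was 2 and 1. The equal-depth procedure called 25 sites near the genes in ESCs and 29 in EBs. Of these, 14 of 25 overlapped an EB call, against 53.5% over the genome, and 14 of 29 overlapped an ESC call, against 53.7%. It called 11 and 7 at Kcnq1, 4 and 1 at Cdkn1c, 2 and 3 at Gnas, 3 and 8 at Peg3, and 1 and 0 at both Meg3 and Snrpn. The whole Kcnq1-Cdkn1c locus also had 11 and 7, so the calls at Cdkn1c are counted within those of Kcnq1. The ESC numbers come from 1 of 3 random thinnings, and the other thinnings gave 20 and 24 ESC sites near the genes. In the thinning used, EBs led at Peg3 and ESCs in the Kcnq1-Cdkn1c locus, while the order at Gnas turned around. The numbers by gene were not compared over the thinnings, and those at Gnas are close.

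Among the ESC sites 12 of 23 were listed in EBs, 52.2% (30.6 to 73.2), against 48.5% of all ESC sites. Among the EB sites 12 of 21 were listed in ESCs, 57.1% (34.0 to 78.2), against 67.8%. A site missing from a list could still hold reads. Of the 11 sites listed in ESCs only, 2 had EB RAD21 reads above EB IgG, against 16.5% of all such sites, and 6 exceeded the 95th percentile of random windows in EBs (5 reads), against 44.5%. Of the 9 sites listed in EBs only, 3 were above IgG in ESCs, against 32.2%, and 4 exceeded the 95th percentile in ESCs (7 reads), against 64.8%.

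At the relaxed CTCF limit the share of EB sites with a match lay below that of all EB sites, and at the strict limit the interval included it. At the relaxed limit 10 of 21 EB sites held a match, 47.6% (25.7 to 70.2), against 84.6% of all EB sites and 5.51% of random windows. Of the ESC sites 19 of 23 did, 82.6% (61.2 to 95.05), against 90.1%. At the strict limit the numbers were 5 of 21 in EBs, 23.8% (8.22 to 47.2), against 37.4%, and 9 of 23 in ESCs, 39.1% (19.7 to 61.5), against 45.8%, with 0.57% of random windows. These intervals treat sites as independent, although many stand close together in the same locus. At the joined positions, the EB-listed sites without a relaxed match included Peg3 sites 1, 3, 5, 6 and 7 and all 3 Mest sites. Peg3 site 3, at 8.37 bits, lay just under the relaxed limit of 8.55 bits. The low EB share thus came largely from the Peg3 and Mest loci. By list, 10 of 11 sites listed in ESCs only, 8 of 12 shared sites and 2 of 9 sites listed in EBs only passed the relaxed limit, where 6746 of all 7757, 6787 of all 7312 and 2276 of all 3419 such sites did. The 2 were Kcnq1-Cdkn1c sites 1 and 2, whose reads did not differ between cell types beyond counting error. The 6 EB-only sites with higher EB reads, at Peg3, Mest and Dlk1-Meg3, held no match. The share without a match was not taken over all EB-only sites with higher EB reads, and a link between match and reads was not tested.

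At the 20 sites with a match at the relaxed limit, the site's position lay on the 3' side of the match in 17 and on the 5' side in 3, in the reading direction of the sequences printed above. The median distance from the centre of the match was 63 bp toward the 3' side, with a range from -40.5 to 137.5 bp. Over all 15809 joined sites with a match, 78.2% lay on the 3' side, at a median of 43.5 bp.

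**Figure D4:**
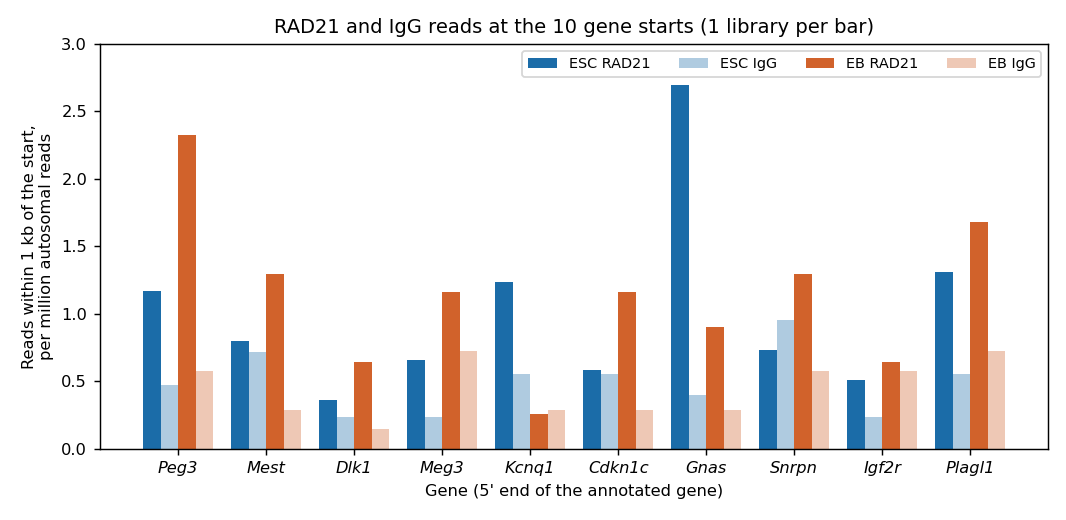
RAD21 (dark) and IgG (pale) reads within 1 kb of the 5' end of each of the 10 genes, in RPM, with ESCs in blue and EBs in orange and 1 library per bar. Gnas in ESCs (2.70) and Peg3 in EBs (2.33) are the highest bars.

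At most gene starts an excess of RAD21 over IgG was not detectable at this depth. Within 1 kb of the 5' end, the RAD21 to IgG interval lay above 1 at 1 of 10 genes in ESCs, Gnas, against 8.31% of all gene starts, and at 1 of 10 in EBs, Peg3, against 8.3%. At the Gnas start RAD21 held 37 reads in ESCs and 7 in EBs beside 5 and 2 IgG reads, 6.80 (2.67 to 22.2) above IgG in ESCs and an EB to ESC ratio of 0.335 (0.126 to 0.762). More reads were found there in ESCs than at 98.7% of gene starts. At the Peg3 start RAD21 held 16 and 18 reads beside 6 and 4 IgG reads, 4.03 (1.33 to 16.4) above IgG in EBs, with an EB to ESC ratio of 1.99 (0.960 to 4.18).

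The EB to ESC interval lay below 1 at 2 of the 10 starts, Gnas and Kcnq1, against 3.78% of gene starts, and above 1 at 0, against 5.52%. At the Kcnq1 start RAD21 held 17 and 2 reads beside 7 and 2 IgG reads, a ratio of 0.208 (0.0234 to 0.878), although RAD21 was above IgG in neither cell type by its interval and no listed site lay there. At the other 7 starts RAD21 held 5 to 18 reads in ESCs and 5 to 13 in EBs, beside 3 to 12 and 1 to 5 IgG reads, and no interval between cell types left out 1. The Kcnq1 and Gnas starts, at 60.4% and 56.6% GC, both stand in the composition range where EB reads were fewest. The starts of Peg3, Dlk1, Meg3, Cdkn1c, Igf2r and Plagl1, at 51.8% to 66.2% GC, stand in that range as well. Their EB to ESC ratios were 1.27 to 1.99, with intervals that included 1. Ratios at gene starts were not scaled by GC content.

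The 10 genes had further annotated starts, and read values are given here for those where an interval left out 1. No background share was taken over alternative starts. At the Mest start used by 5 transcripts, RAD21 held 20 and 24 reads beside 9 and 3 IgG reads, an EB to ESC ratio of 2.13 (1.13 to 4.06), and in EBs it was 7.16 (2.17 to 37.2) above IgG. This start also held 12 copies of TGCCGC within 1 kb on both strands, the letters of the motif of ZFP57, a zinc finger protein that keeps methylation at imprinted regions. The downstream Snrpn start held 10. The most found at the 5' end of any of the 10 genes was 6. At least 3 were found at 2 of these 10 ends and at 6.84% of all gene starts. That share counts 1 start per gene, so it is no background for the alternative starts with 12 and 10 copies. At the second Meg3 start RAD21 held 13 and 7 reads beside 3 and 2 IgG reads and was above IgG in ESCs at 3.98 (1.09 to 21.8). At the second Plagl1 start it held 11 and 18 beside 10 and 7 IgG reads, an EB to ESC ratio of 2.90 (1.30 to 6.79). At the second Gnas start it held 16 and 2 beside 6 and 3, a ratio of 0.221 (0.0247 to 0.942). RAD21 was not above IgG by the interval in either cell type at the second Plagl1 and Gnas starts. The windows of the second Meg3, Plagl1 and Gnas starts overlap those of the 5' ends, so they can share reads.

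The starts of the noncoding RNAs Kcnq1ot1, Airn and Nespas and the downstream Snrpn start, which lie in or near known control regions, were not above IgG by their intervals. At the Kcnq1ot1 start RAD21 held 13 and 12 reads beside 11 and 5 IgG reads, 1.09 (0.449 to 2.68) in ESCs and 2.15 (0.705 to 7.78) in EBs. At the Airn start inside Igf2r it held 8 and 11 beside 8 and 4 IgG reads, 0.919 (0.301 to 2.81) and 2.46 (0.729 to 10.6). At the Nespas start used by 2 transcripts it held 17 and 15 beside 6 and 11 IgG reads, 2.603 (0.979 to 8.06) and 1.22 (0.524 to 2.94). These values straddled equality. At the downstream Snrpn start it held 6 in each beside 3 and 8 IgG reads, 1.84 (0.392 to 11.4) and 0.671 (0.192 to 2.21). At this depth, an excess within these intervals was not detectable.

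The imprinted neighbours of the 10 genes gave 31 names, of which 29 had a start, 3 of them (Kcnq1ot1, Zim2 and Snurf) by matching RefSeq promoter sequence to the genome. A listed site lay within 1 kb of a start at 5 of them in ESCs (Zim1, Osbpl5, Nespas, Magel2 and Peg12) and at 4 in EBs (the same without Nespas). Sites also lay inside Airn in both, inside Slc22a3 in ESCs and inside Tspan32 and Ube3a in EBs. RAD21 was above IgG at a start of 3 of 29 in ESCs (Zim1, Copg2 and Peg12) and of 4 in EBs (Zim1, Cd81, Magel2 and Peg12), beside 8.31% and 8.3% of all gene starts, and up to 6 starts were counted per neighbour. At the Peg12 start it held 25 and 16 reads beside 7 and 4 IgG reads. At the internal Zim1 start it held 38 and 14 beside 4 in each IgG library, the highest excess of the list in ESCs at 8.73 (3.14 to 33.7), with an EB to ESC ratio of 0.653 (0.327 to 1.23).

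Up to 6 starts were again counted per neighbour, while the shares over all gene starts count 1 per gene. Between cell types, a start of 2 of 29 neighbours was higher in EBs and a start of 2 was lower, beside 5.52% and 3.78% of all gene starts. The higher ones were the upstream Zim1 start, with 21 and 23 reads beside 7 IgG reads in each and a ratio of 1.94 (1.03 to 3.69), and a start of Cd81, which encodes a membrane tetraspanin, with 8 and 13 reads beside 9 and 3 IgG reads and 2.88 (1.11 to 8.01). The lower ones were both starts of Slc22a18, an organic cation transporter gene beside Cdkn1c, with 24 and 5 reads beside 12 and 5 IgG reads and with 13 and 1 beside 7 and 1, at 0.369 (0.110 to 0.987) and 0.136 (0.00321 to 0.907), and a start of Osbpl5 with 19 and 3 reads beside 9 and 5 IgG reads and 0.280 (0.0530 to 0.9504). RAD21 was not above IgG by the interval at the Slc22a18 and Osbpl5 starts in ESCs. The Slc22a18 starts lie near the ESC-only sites 9 and 10 described above.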

How the data were processed

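RAD21-GFP and IgG ChIP-seq reads of 35 bases were available from ESCs and day-12 EBs. The authors deposited aligned reads on mm9 as positions, each a count of 1, peak lists whose score is 10 times the negative log10 of the MACS p-value (all at least 50, which is a p of 1e-05), and summits with the signal height, the reads piled up there. The authors called peaks in each RAD21 library against its IgG library with MACS 1.4beta. The aligner is not given in the sources used here. Positions occur once per strand in each file, 7 lines of the ESC IgG file were incomplete, and the EB IgG file breaks off on chromosome X, so totals were taken over autosomes.

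Reads were moved to fragment centres, with fragment lengths of 205 bp in ESCs and 195 bp in EBs from strand correlation, and counted within 250 bp of each site, or 1 kb of a gene start. A shared site's position is the midpoint of its ESC and EB summits. Ratios were scaled by autosomal reads, with exact conditional binomial intervals (scipy 1.17.1), and shares have Clopper-Pearson intervals. GC scaling divided a ratio by the ratio of summed reads in random windows of the same of 5 GC classes. Equal-depth sites are 400 bp windows in steps of 50 bp with a Poisson p of at most 1e-05 over genome-wide and IgG densities. Equal-depth values by gene or site are from 1 of 3 random thinnings of the ESC libraries. The ratio, motif and calling steps were tested on simulated data. The genes, gene lists and tests were chosen with earlier results of these data known, and the GCCATNTT and TGCCGC letters after the sites were seen. Given in full were the sites of highest score at each locus, those within 1 kb of a start of a named gene and those that differed between cell types, and the few others were added, except that 1 site of highest score at its locus is not reported here. Imprinted neighbours were named where a site lay within 1 kb of a start or inside them, while Copg2, Cd81 and Slc22a18 were named after their values were seen. Zim3 and Zfp264 were not analysed here.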

Additional observations from a re-analysis of the deposited data

How the results depend on the processing

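With 1 library per group, leaving out a library was not possible. No paired analysis was possible because there are no replicate numbers and no test. Of 64 alternatives over 15 results, 42 stayed within the set limits and 22 moved. The EB libraries were not thinned, so the draws and full depth do not apply to EB sites called at equal depth. The cause of the moves was not tested.

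With a score of at least 100, 14 ESC and 11 EB sites were left, and 81.8% of those EB sites were listed in ESCs. The strict caller limit of 1e-07 gave 16 ESC and 19 EB sites, and the genome-wide background alone 50 EB sites. The CTCF share at the relaxed limit was 82.6% in ESCs and 47.6% in EBs. The median RAD21 to IgG ratio at ESC sites, 7.96, became 12.9 within 150 bp, 10.7 with 0.1 reads added and 4.08 with 5 reads added. At EB sites 5.37 became 2.94 with 5 reads added. Gene starts above IgG in ESCs numbered 2 within 500 bp, 2 within 2 kb and 2 over any annotated start. In EBs they numbered 3 within 2 kb and 2 over any start. Sites higher in EBs numbered 4 when scaled by shared sites and 5 with 99% intervals. Sites lower in EBs numbered 3 with GC scaling and 3 with 99% intervals. The median log2 EB to ESC ratio, 0.05, turned to -0.35 when scaled by shared sites and became 0.54 with GC scaling. The change to -0.35 was counted as moved, and the larger change to 0.54 as within the set limits.

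Depth limits the values most in EBs, where 1 read is 0.129 RPM, and most sites held under 30 EB reads.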

Other observations

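The equal-depth procedure called 4 regions near these genes that stood in neither deposited list and held at least 13 RAD21 reads in the cell type of the call. The region at chr7:150666401-150667000, inside Slc22a18, held 13 RAD21 reads in ESCs and 3 in EBs beside 1 IgG read in each. The region at chr10:12737951-12738500, close to Plagl1 site 2, held 16 and 9 beside 0 and 2 IgG reads. The region at chr10:12847001-12847550, in the Plagl1 gene body, held 14 and 3 beside 2 and 1 IgG reads. The region at chr10:12888201-12888650, 77.9 kb downstream of the Plagl1 start, was called in EBs with 8 and 15 RAD21 reads beside 4 in each IgG library. A smaller region 4.57 kb upstream of the Igf2r start, at chr17:12966851-12967350, was called in EBs with 3 and 10 reads beside 0 and 2 IgG reads. Similar small regions in neither list were called in EBs upstream of Peg3 (3 and 11 RAD21 reads), near Cd81 (3 and 10) and in Gnas (8 and 10). The share of calls in neither list was not taken over the genome.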
